A study of Nicotiana benthamiana with 9 samples.

Results

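The region described here is the stretch of a green fluorescent protein (GFP) transgene that lies between the target sites of 2 sprayed siRNAs, siR386 and siR739. It comprises the 331 single positions from 408 to 738 of the 792-nt GFP contig used in the deposited files, and it was delimited by the site positions alone, without use of any measured value. A site was taken to span 22 positions from the number in the siRNA's name, so the siR386 site ends at position 407 and the siR739 site at position 760. All coordinates count from position 1 of the contig, and its place among the plant's chromosomes was not analysed here. The first positions, 408 and 409, were at 0 in 8 of the 9 libraries, all but siR164 replicate 1.

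Leaves of Nicotiana benthamiana line 16C, a plant line that carries a GFP transgene, received a synthetic 22-nt siRNA against GFP by high-pressure spraying at 140 ng/µl. Small RNA was sequenced 6 days after spraying from silenced areas, with 3 leaves pooled in each library. The groups were siR739 (replicates 7 to 9), siR386 (replicates 4 to 6) and siR164 (replicates 1 to 3), and the study asked how the choice of siRNA affects the amount and the profile of secondary small RNAs. All 9 libraries shared the plant line, the spraying method, the dose, the time and the enrichment for small RNA. Leaves without an siRNA were not analysed here, so the values compare the 3 siRNAs with each other. Whether the leaf pools of a group were taken from different plants is not stated in the labels, so p-values refer to the spread among these 9 libraries only and this spread may be technical.

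In plants, a small RNA bound by an Argonaute protein can mark a transcript for copying by an RNA-dependent RNA polymerase. Enzymes of the Dicer-like family then cut the double-stranded product into new, secondary siRNAs. This process, called transitivity, yields small RNAs from parts of the transcript that the first siRNA does not match, on either side of its site. Transgene transcripts such as GFP in line 16C are a common substrate of this pathway. The stretch lies 3′ of the sites of siR164 and siR386 and 5′ of the site of siR739.

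Coverage, the number of reads of all lengths and both strands over a position, added up within the stretch to 10418, 4973 and 6341 in siR739 replicates 7 to 9. Replicates 4 to 6, sprayed with siR386, had sums of 18097, 33431 and 15617, and replicates 1 to 3, sprayed with siR164, had 90989, 27584 and 39161. At 22 nt per read this corresponds to 226 to 474 reads after siR739, 710 to 1520 after siR386 and 1254 to 4136 after siR164, so single positions were least precise after siR739. The stretch held 74.1% to 79.8% of the contig's coverage after siR739, 76.8% to 82.5% after siR386 and 72.5% to 74.1% after siR164.

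Mean coverage of the stretch was lowest after siR739 and highest after siR164. It was 31.5, 15.02 and 19.2 reads per position after siR739, 54.7, 101.0 and 47.2 after siR386, and 275, 83.3 and 118 after siR164. The siR739 libraries lay below every other library, while siR386 and siR164 overlapped. The group means were 21.9 ± 8.56, 67.6 ± 29.2 and 159 ± 102 reads per position after siR739, siR386 and siR164 (SD, n = 3 each). Tested on log2(coverage + 1), the level differed between the siRNAs (F = 11.9, two-sided exact permutation p = 0.00714). In these log2 units the difference was −2.68 for siR739 minus siR164 (SE 0.59) and −1.57 for siR739 minus siR386 (SE 0.45), each with an exact permutation p of 0.1, the smallest that 3 against 3 libraries can give. For siR386 minus siR164 it was −1.11 (SE 0.61, exact permutation p = 0.2), and −0.63 without siR164 replicate 1. Coverage was not divided by library size, so the amount of transgene small RNA and the depth of sequencing cannot be told apart in these levels.

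Position by position, coverage after siR739 lay below all siR164 libraries at 328 of the 331 positions. Over all 726 positions of the contig outside the sites, covered or not, the share was 73.4%. Coverage after siR739 lay below all siR386 libraries at 298 positions, against 60.9% of the 726. After siR386, 27 positions lay below all siR164 libraries, against 29.6% of the 726. No position of the stretch lay above all libraries of the other siRNA in any of these comparisons, and over the 726 such positions made up 0%, 1.38% and 0% in the same order. These counts follow the level of the libraries and carry the same limit of unknown depth.

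Within every library, the stretch was more covered per position than each of the 3 other segments of the transgene. With 1 added to each mean, the log2 ratio of its mean coverage to that of the segment between the siR164 and siR386 sites (positions 186 to 385) averaged 1.32, or 2.50-fold, over the 9 libraries. Against the segment after the siR739 site (positions 761 to 792) it averaged 1.83, or 3.54-fold, and against the segment before the siR164 site (positions 1 to 163) 4.08, or 16.9-fold. Before the siR164 site mean coverage was only 1.12 to 5.67 reads per position, so the added 1 makes the last ratio smaller than that of raw coverage. Each ratio was above 0 in 9 of 9 libraries (exact sign-flip permutation p = 0.00391 for each, two-sided, the smallest possible, and unchanged by adjustment over 3 segments). The margin over positions 186 to 385 was 1.58 ± 0.26 after siR739, 1.56 ± 0.14 after siR386 and 0.82 ± 0.078 after siR164 (log2, SD, n = 3 each). The margin over the short segment past the siR739 site ran the other way, at 0.81 ± 0.18 after siR739, 1.98 ± 0.34 after siR386 and 2.69 ± 0.17 after siR164. Over the segment before the siR164 site it was 2.62 ± 0.69, 4.49 ± 0.33 and 5.13 ± 0.63 in the same order. These differences in margin between siRNAs were not tested, and through the added 1 they depend in part on coverage.

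**Figure D1:**
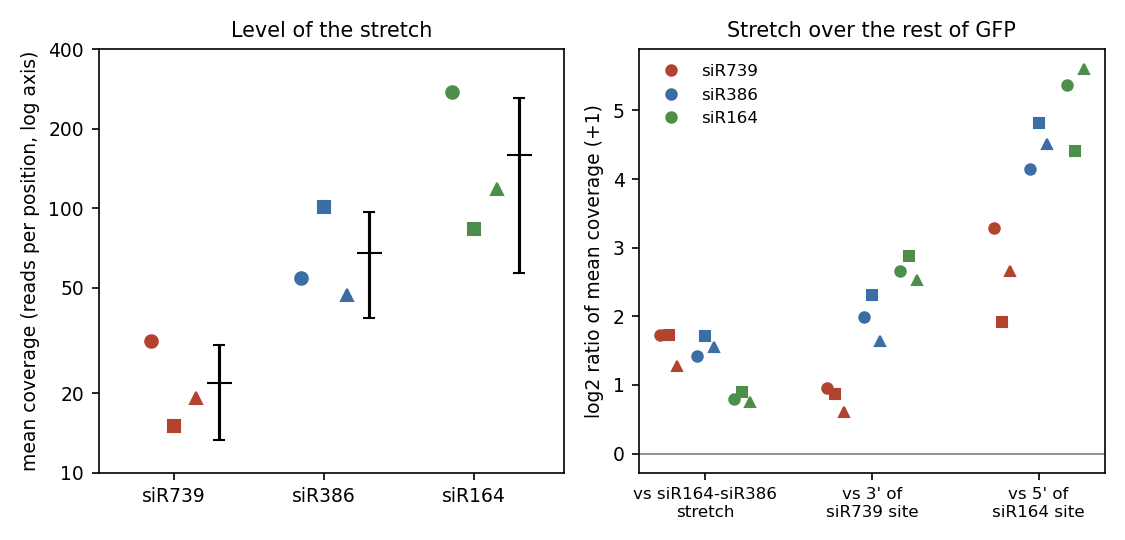
Left, mean coverage of the stretch in reads per position on a log axis, with 1 point per library and the mean and SD of each siRNA (n = 3); circle, square and triangle stand for replicates 7, 8 and 9, 4, 5 and 6, or 1, 2 and 3. Right, the log2 ratio of the stretch's mean coverage to that of each other segment in the same library, with 1 added to each mean. The siR739 libraries sit between 15.02 and 31.5 reads per position, below all others, and every ratio lies above 0.

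To compare the shape of the profile apart from its level, coverage at each position was divided by the library's own sum over the stretch and given in percent. A flat profile would hold 0.302% at each position. The same series of peaks returned after each siRNA, and the main one was at position 576, 169 nt past the end of the siR386 site and 163 nt before the siR739 site. There, coverage was 78, 43 and 54 reads in siR739 replicates 7 to 9, 175, 287 and 157 after siR386, and 737, 260 and 352 after siR164. As a share of the stretch this was 0.822% ± 0.064 after siR739, 0.944% ± 0.076 after siR386 and 0.884% ± 0.068 after siR164 (SD, n = 3 each), or 2.72, 3.12 and 2.93 times a flat profile. Shares of the 3 groups overlapped at this position, although raw coverage there differed by an order of magnitude between the lowest and highest libraries.

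The summit was broad. Positions 567 to 582 held at least 2 times the library's own mean in all 9 libraries, and positions 561 to 589 at least 1.5 times. The highest 10-nt windows of the stretch lay there. Window 569–578 held 7.63% ± 0.48 after siR739, 8.53% ± 0.88 after siR386 and 7.86% ± 0.60 after siR164. Window 559–568 held 6.28%, 6.58% and 6.28% of the stretch in the same order, and window 579–588 held 6.71%, 8.24% and 7.59%. On the 3′ side the profile dropped into the deepest trough, at position 613 after siR739 (0.084% ± 0.009) and at 614 after siR386 (0.067% ± 0.015) and siR164 (0.069% ± 0.019). Coverage at position 614 was 10, 4 and 6 reads after siR739, 15, 18 and 10 after siR386, and 43, 21 and 33 after siR164. With 4 to 10 reads, the exact floor of the trough after siR739 could not be resolved at this depth. Positions 601 to 617 were under 0.5 times the library's own mean in all 9 libraries, and windows 599–608 and 609–618 were the lowest of the stretch, at 0.99% and 1.04% after siR739, 0.92% and 0.81% after siR386, and 1.01% and 0.80% after siR164.

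On the 5′ side of the summit, smaller peaks stood at positions 442 and 511. Position 511 was covered by 39, 22 and 32 reads after siR739, 85, 154 and 71 after siR386, and 527, 141 and 243 after siR164. Its share was 0.440% ± 0.065 after siR739, 0.462% ± 0.008 after siR386 and 0.570% ± 0.055 after siR164, with all siR164 libraries above the others. Windows 499–508 and 509–518 around it, which complete the 5 highest by the mean over the 9 libraries, held 3.58% and 3.73% after siR739, 3.73% and 3.99% after siR386, and 4.64% and 5.02% after siR164. Position 442 held 0.306% ± 0.009 after siR739, close to a flat profile, 0.356% ± 0.044 after siR386 and 0.414% ± 0.039 after siR164. On the 3′ side, a low peak lay at 637 after siR739 (0.314% ± 0.10) and at 635 after siR386 (0.293% ± 0.042) and siR164 (0.273% ± 0.046). A higher one lay at 682 after siR739 (0.486% ± 0.021) and at 680 after siR386 (0.445% ± 0.020) and siR164 (0.389% ± 0.043). At position 682, the peak after siR739, the order of the group means was the reverse of that at 511. Coverage there was 51, 23 and 32 reads after siR739, 79, 144 and 62 after siR386, and 321, 94 and 161 after siR164. As a share of the stretch this was 0.486% after siR739, 0.421% after siR386 and 0.368% after siR164. Libraries of siR386 and siR164 overlapped at 682, with 0.397% in siR386 replicate 6 and 0.411% in siR164 replicate 3. At position 680 the share after siR739 was 0.456% ± 0.053 and overlapped that after siR386.

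Peaks near 511, 576, 635 and 680 were found within 11 nt in each of the 9 libraries taken alone, and the peak near 442 in 8. Troughs near 486, 547 and 654 were also found within 11 nt in each library. The one that was deepest in the mean profiles recurred less closely. Within 11 nt of 613 it was found in 1 of the 3 siR739 libraries and in 7 of all 9 libraries, and within 11 nt of 614 in 8 of the 9. The lowest covered position was 418 in siR739 replicate 7, 599 in siR739 replicates 8 and 9, and 415 in siR164 replicate 3. The trough before 511 lay at 490 after siR739 (0.127%) and at 486 after siR386 (0.158%) and siR164 (0.148%). The trough at 547 held 0.159% after siR739, 0.119% after siR386 and 0.118% after siR164, and that at 654 held 0.12%, 0.138% and 0.131% in the same order. Window 409–418, also among the 3 lowest by the mean over the 9 libraries, held 1.06% after siR739, 1.49% after siR386 and 1.45% after siR164. In siR164 replicate 1 it held 1.89%, of which 0.665% was at position 409, which was at 0 in all other libraries. A trough at 418 was found after siR386 (0.087%) and siR164 (0.091%), and in 6 of 9 single libraries. After siR739 position 418 held 0.099% and was not a trough by the rule used. Towards the siR739 site the last trough was shallow after siR739, at 0.257% (position 720), against 0.173% after siR386 (position 722) and 0.149% after siR164 (position 720), and a further dip at 692 (0.333%) was found after siR739. In all, 5 peaks and 6 troughs were found after siR739, 6 and 6 after siR386, and 5 and 6 after siR164; the additional siR386 peak is the edge position 410 described below.

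**Figure D2:**
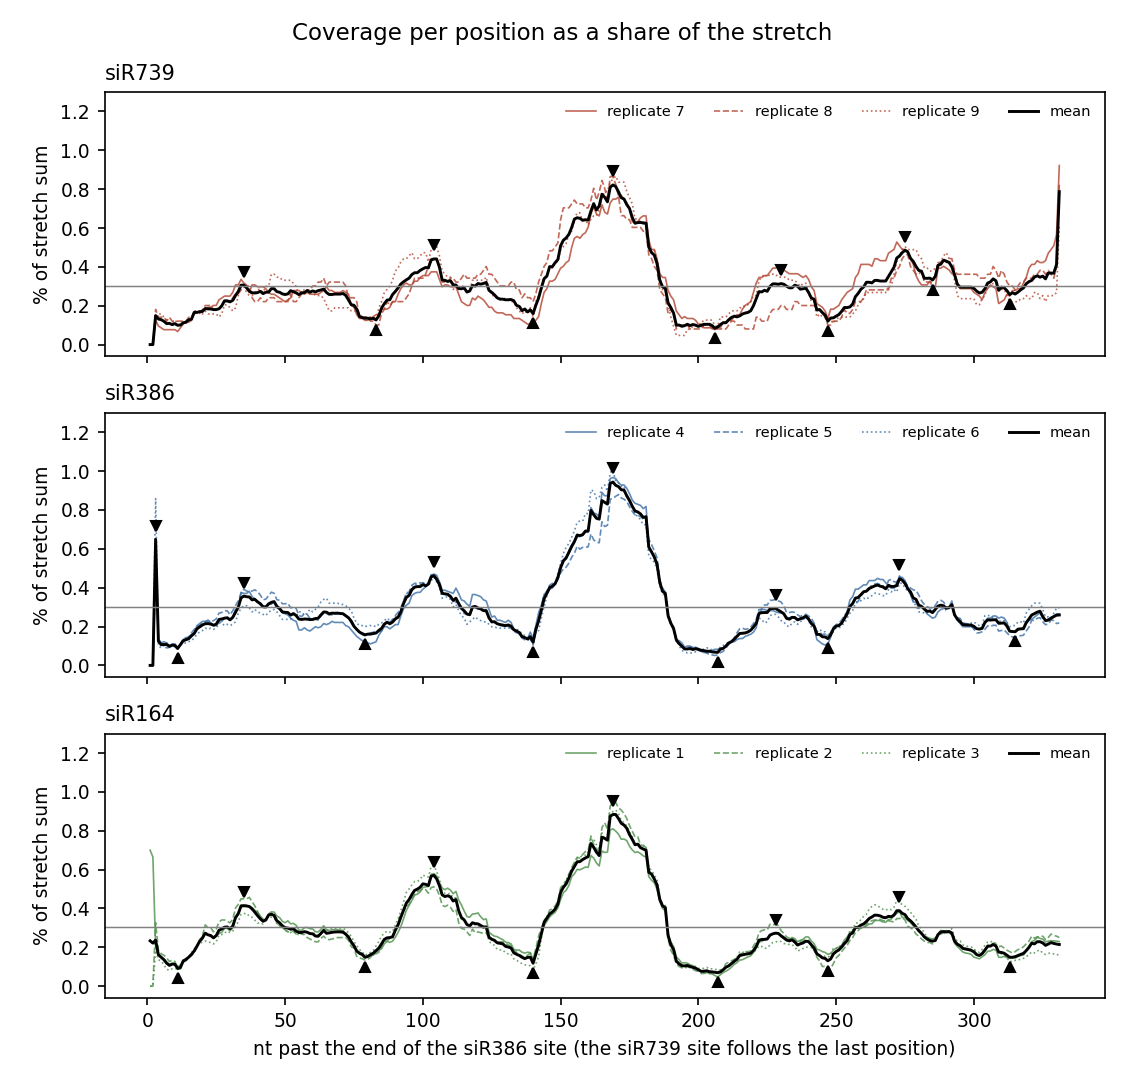
Percent of the stretch's sum at each position against the distance past the end of the siR386 site in nt, for siR739, siR386 and siR164 from top to bottom; thin lines are the 3 libraries, the black line their mean, triangles the peaks and troughs, and the grey line the flat share of 0.302%. The summit at 169 nt and the trough after it return in each panel, siR386 has a spike at its 5′ end and siR739 a spike at its 3′ end.

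How far peaks and troughs stood apart was summarised by the coefficient of variation over positions, which was 55.2% ± 2.73 after siR739, 61.5% ± 4.13 after siR386 and 58.4% ± 3.97 after siR164 (SD, n = 3 each). No difference between the siRNAs was detected (F = 2.28, exact permutation p = 0.189). With the counting variance subtracted, taken as equal to mean coverage and added after seeing the data, the values were 50.4% ± 1.27, 60.2% ± 3.73 and 57.7% ± 3.70 and the siRNAs differed (F = 7.93, exact permutation p = 0.0286). All siR739 libraries then lay below the others.

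Although the peaks stood at like positions, the profile tilted differently along the stretch. The slope, as percent of the stretch's mean gained per 100 nt towards the 3′ end, was 18.4, 9.91 and 7.05 in siR739 replicates 7 to 9. After siR386 it was 3.65, 0.177 and 2.68, and after siR164 it was −10.1, −5.94 and −5.44. In siR164 replicate 1, with −10.1, the first positions of the stretch had 637 and 605 reads, or 1.365% of its sum. These positions were at 0 in all other libraries. They lower the slope of this library, and by how much was not tested. The 3 groups did not overlap: the fitted line rose towards the siR739 site after siR739, was nearly level after siR386 and fell after siR164. The line summarises a profile with its summit near the middle of the stretch, and not a steady course. The group means of 11.8 ± 5.90 after siR739, 2.17 ± 1.79 after siR386 and −7.15 ± 2.54 after siR164 (SD, n = 3 each) differed by more than the spread between libraries (F = 18.1, exact permutation p = 0.00357, two-sided, the smallest possible). Between pairs, the slopes differed by 18.9 (SE 3.71) for siR739 minus siR164, 9.61 (SE 3.56) for siR739 minus siR386 and 9.32 (SE 1.79) for siR386 minus siR164, each with an exact permutation p of 0.1, the smallest possible, and 0.1 after adjustment over 3 pairs. Without siR739 replicate 7 the slopes of siR739 and siR386 differed by 6.31. Without 22 positions at each end the slopes averaged 5.16 ± 5.26, −1.01 ± 1.83 and −11.6 ± 2.42 after siR739, siR386 and siR164. Part of the rise after siR739 thus lay at the edges, while the decline after siR164 was steeper without them. The mean after siR386 then changed sign, while the groups still did not overlap (F = 17.7, exact permutation p = 0.00357).

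Expressed as a position, the centre of coverage lay at 589.8, 582.0 and 579.4 after siR739, at 576.3, 573.2 and 575.5 after siR386, and at 563.8, 567.6 and 568.0 after siR164. The centre is another form of the slope and not a separate test. That of siR164 replicate 1 is likewise lowered by the first positions of the stretch, which were covered in this library alone. The first 25% of the stretch's coverage was reached at positions 511 to 516 after siR739, 506 to 514 after siR386 and 500 to 504 after siR164. The first 75% was reached at positions 652 to 671 after siR739, 646 to 648 after siR386 and 634 to 636 after siR164. The groups did not overlap at 75%, while siR739 and siR386 overlapped at 25%.

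In parts of equal length, the siRNAs differed at both ends of the stretch, and no difference was detected in its middle. The 5′ part (positions 408 to 517) held 25.3%, 25.6% and 27.7% of the stretch after siR739, 26.4%, 29.7% and 28.4% after siR386, and 33.7%, 31.7% and 32.4% after siR164. All siR164 libraries lay above the others there, while siR739 and siR386 overlapped (F = 17.6, exact permutation p = 0.00714, 0.0107 adjusted over the parts compared). The 33.7% of siR164 replicate 1 includes 1.365% at the first positions of the stretch, which were at 0 in all other libraries. The 3′ part (positions 628 to 738) held 38.9%, 32.6% and 32.4% after siR739, 30.2%, 30.4% and 29.5% after siR386, and 26.6%, 26.8% and 26.8% after siR164. The 3 groups did not overlap there (F = 10.4, exact permutation p = 0.00357, adjusted 0.0107). The middle of the stretch (518 to 627), with the summit, held 39.1% ± 3.01 after siR739, 41.8% ± 1.75 after siR386 and 40.7% ± 0.96 after siR164, with no detectable difference (F = 1.22, exact permutation p = 0.368). Because the 3 parts of each library sum to 100%, the 3 tests depend on each other. Without 22 positions at each end, the difference in the 3′ part no longer passed (F = 5.07, adjusted exact permutation p = 0.0643).

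**Figure D3:**
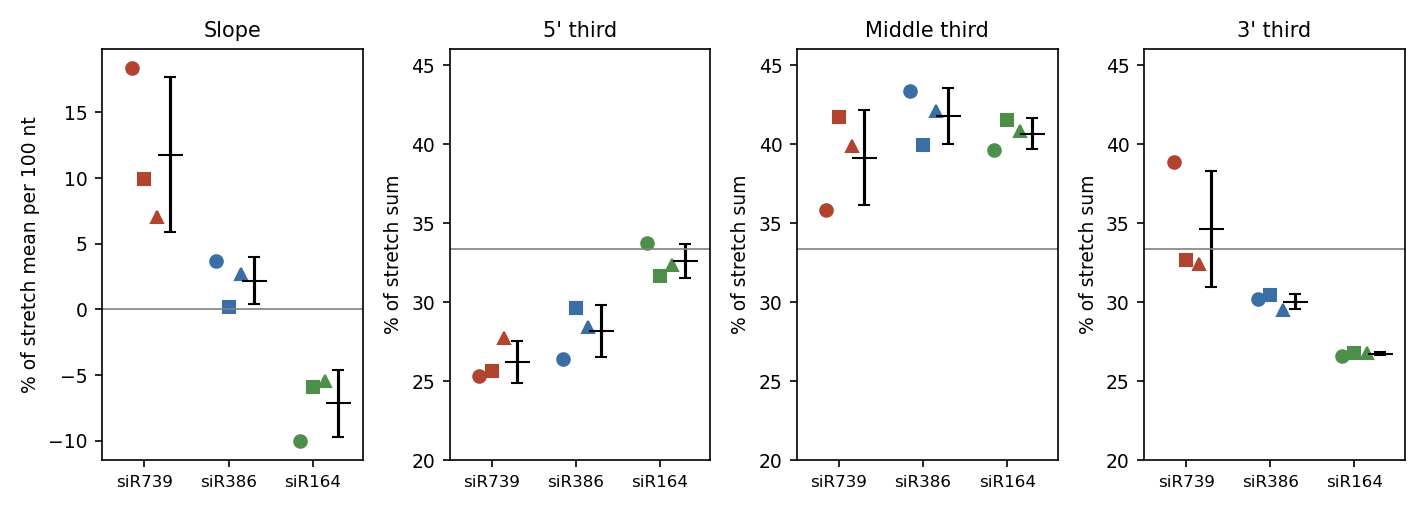
Slope along the stretch in percent of its mean per 100 nt, and percent of the stretch's sum in its 5′, middle and 3′ parts, with 1 point per library, the mean and SD (n = 3) beside them, and a grey line at the value of a flat profile; symbols mark replicates as in the plot of levels. Slopes run from 7.05 to 18.4 after siR739, from 0.177 to 3.65 after siR386 and from −10.1 to −5.44 after siR164.

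Single windows of 10 nt were then compared with limma on log2(percent of the stretch's sum + 0.1), fitted over the 71 windows outside the sites that had enough coverage, of which 33 lie in the stretch. For siR739 minus siR164, 11 of the 33 windows were called at an adjusted p under 0.05, against 54.9% of all windows tested; 6 were higher (29.6% of all windows) and 5 lower (25.4%). The share of called windows in the stretch was below that of the contig. Windows outside the stretch were also divided by its sum, so they keep any difference in level relative to it. This scaling favours fewer calls inside the stretch, here and for the other pairs, so no conclusion is drawn from the lower share. The higher windows were the 6 that adjoin the siR739 site, from 679 to 738, and the lower ones lay at 429–448, 499–518 and 589–598. With 1 library left out at a time, the call at 589–598 held in 1 of 9 cases (limma adjusted p up to 0.153) and that at 499–508 in 5 of 9. Calls at 429–438 and 679–688 held in 6 of 9 (limma adjusted p up to 0.127 and 0.115). Those at 439–448 and 509–518 held in 7 of 9 and that at 699–708 in 8 of 9. The remaining calls, at 689–698 and from 709 to 738, held in 9 of 9.

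Window 729–738, next to the siR739 site, held 5.08%, 4.16% and 2.89% of the stretch after siR739, against 2.36%, 2.54% and 1.70% after siR164. This was a log2 difference of 0.83 (SE 0.19, limma adjusted p = 0.00105), and every siR739 library lay above every siR164 library. Window 719–728 held 2.87% ± 0.47 after siR739 and 1.70% ± 0.28 after siR164, a log2 difference of 0.72 (limma adjusted p = 0.0036). Windows 709–718, 699–708 and 689–698 held 3.00%, 3.11% and 3.82% after siR739, against 1.86%, 2.03% and 2.58% after siR164, with log2 differences of 0.65, 0.58 and 0.54. Without siR739 replicate 7 the log2 differences of these 5 neighbouring windows, which share reads, lay between 0.60 and 0.74 and did not follow their distance from the site. Among the lower windows, 509–518, on the peak at 511, held 3.73% ± 0.39 after siR739 and 5.02% ± 0.45 after siR164 (log2 difference −0.42, limma adjusted p = 0.0090). The count for this pair was 5 without siR164 replicate 1 and 6 without siR164 replicate 2. On coverage outside the sites instead of the stretch's sum, 8 windows were called, 6 higher and 2 lower.

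For siR739 minus siR386, 2 of the 33 windows were called, 1 higher and 1 lower, against 21.1% of all windows tested (19.7% higher and 1.41% lower). Window 729–738 held 5.08%, 4.16% and 2.89% after siR739 and 2.53%, 2.26% and 2.85% after siR386 (log2 difference 0.62, SE 0.19, limma adjusted p = 0.0190), with siR739 replicate 9 close to the highest siR386 library. Position 738 alone held 0.218% to 0.295% of the stretch after siR386, against 0.615% to 0.921% after siR739, so part of this difference lay there too. Window 579–588, on the 3′ flank of the summit, held 6.82%, 6.19% and 7.13% after siR739 and 8.61%, 7.99% and 8.11% after siR386, without overlap (log2 difference −0.29, limma adjusted p = 0.0190). The call at 729–738 was lost without siR739 replicate 7 (adjusted p = 0.101 in limma), and limma called 0 windows without siR386 replicate 4 or 6, against 6 without siR739 replicate 7, 4 without siR739 replicate 9 and 1 without siR739 replicate 8 or siR386 replicate 5. On coverage outside the sites, 5 were called, 1 higher and 4 lower.

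For siR386 minus siR164, limma called 0 of the 33 windows, against 14.1% of all windows tested, and 2 windows had an unadjusted p under 0.05. The smallest p was that of window 509–518, at 3.99% ± 0.16 after siR386 and 5.02% ± 0.45 after siR164 (log2 difference −0.32, SE 0.13, limma adjusted p = 0.0947). In the slope and in the 5′ and 3′ parts, these groups did not overlap.

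**Figure D4:**
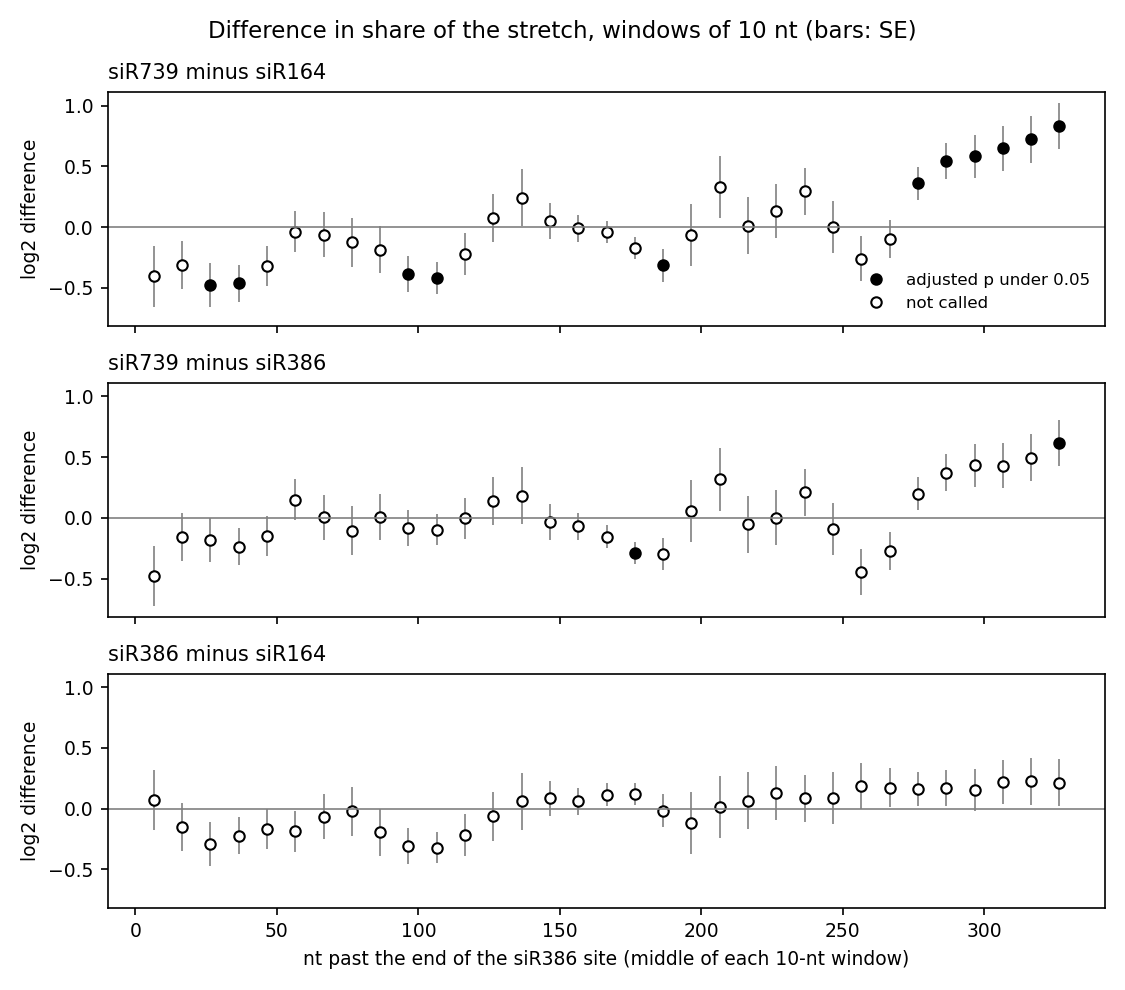
Log2 difference in percent of the stretch's sum for each pair of siRNAs in windows of 10 nt, against the distance of the window's middle past the siR386 site; bars are standard errors and filled points have a limma adjusted p under 0.05. After siR739 the last 6 windows lie above those of siR164, up to 0.83, and for siR386 minus siR164 no point is filled.

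Over the 33 windows, profiles of libraries of the same siRNA correlated at a mean of 0.906 and those of different siRNAs at 0.867, which leaves 0.038 between them (one-sided exact permutation p = 0.00357 over libraries, the smallest possible). By groups, the mean correlation was 0.819 among siR739 libraries, 0.951 among siR386 libraries and 0.947 among siR164 libraries. Between siRNAs it was 0.858 for siR739 and siR386, 0.804 for siR739 and siR164, and 0.940 for siR386 and siR164, nearly as high as within either group. On average, the siR739 libraries, with the fewest reads in the stretch, correlated less with each other than with those of siR386. Every correlation that involved an siR739 library (up to 0.895) lay below every one that did not (from 0.908). The part of read number in the permutation result was not tested. The difference of 0.038 became 0.010 without 22 positions at each end (exact one-sided permutation p = 0.118), and it missed the threshold without any one siR386 or siR164 library (exact p from 0.0571 to 0.129).

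The ends of the stretch carried steps that were limited to 1 or 2 positions. Position 410, the first with coverage in all libraries, had 13, 9 and 9 reads after siR739, 88, 201 and 134 after siR386, and 182, 90 and 72 after siR164. The next position, 411, had 10, 7 and 10 reads after siR739, 24, 47 and 16 after siR386, and 150, 51 and 53 after siR164. After siR386 position 410 thus stood 3.67, 4.28 and 8.38 times above its neighbour, against 0.9 to 1.3 times after siR739 and 1.21 to 1.76 times after siR164. It held 0.649% ± 0.190 of the stretch after siR386, more than any position outside the summit. In siR164 replicate 1, the exception at positions 408 and 409, these had 637 and 605 reads, or 1.37% of that library's stretch.

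At the other end, position 738 had 96, 41 and 39 reads after siR739, 48, 73 and 46 after siR386, and 209, 69 and 64 after siR164. One position before it, coverage was 59, 20 and 17 reads after siR739, 48, 72 and 46 after siR386, and 211, 71 and 63 after siR164. The last position thus stood 1.63, 2.05 and 2.29 times above its neighbour after siR739, against 1.00 to 1.01 times after siR386 and 0.97 to 1.02 times after siR164. The rise at 738 was 124% ± 13.7 of the stretch's mean after siR739. In siR739 replicate 7 position 738 was the most covered of the whole stretch, above the summit. Each siRNA whose site borders the stretch thus had a step at the last position with coverage next to that site, and siR164, whose site does not border it, had smaller ones apart from positions 408 and 409 of replicate 1.

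Inside the stretch, steps in coverage mark where reads begin and end. The largest rises inside were at 575, 572 and 568 after siR386 (35.2%, 31.6% and 34.7% of the stretch's mean) and siR164 (40.6%, 31.4% and 22.4%). After siR739 they were at 575 and 557 (24.9% ± 13.1 and 23.4% ± 15.4), while 572 and 568 had rises of 19.97% and 15.3%. The largest falls were at 589, 593 and 596 after siR739 (−41.0%, −28.3% and −25.0%). At 589 and 596 the steps were −51.8% and −37.9% after siR386 and −37.6% and −47.6% after siR164, and position 411 was the other large fall after siR386 (−173% ± 68.9) and siR164 (−24.8% ± 19.2). The rises at 568, 572 and 575 and the falls at 589, 593 and 596 were seen in 9 of 9 libraries, and each rise had a fall 21 nt after it. These steps of the summit thus stood at the same positions after the 3 siRNAs.

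The same distance appeared over the whole stretch. When the rise at each position was correlated with the fall a fixed number of nt further 3′, the distance of 21 nt gave the highest correlation in all 9 libraries, at 0.499 ± 0.052 after siR739, 0.640 ± 0.042 after siR386 and 0.659 ± 0.028 after siR164 (SD, n = 3 each, over 307 positions). Coverage here mixes reads of all lengths, and a fall 21 nt after a rise is what a read of that length leaves. At 22 nt the correlations were 0.319 ± 0.073, 0.206 ± 0.015 and 0.265 ± 0.035, and at 24 nt 0.204 ± 0.072, 0.272 ± 0.042 and 0.363 ± 0.042, in the same order. The second-best distance was 22 nt in the 3 siR739 libraries and 24 nt in the 3 siR164 libraries. Among siR386 libraries it was 24 nt in replicates 4 and 5 and 26 nt in replicate 6. These correlations describe neighbouring positions that share reads and depth, so no test was made, and read lengths themselves were not analysed here.

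**Figure D5:**
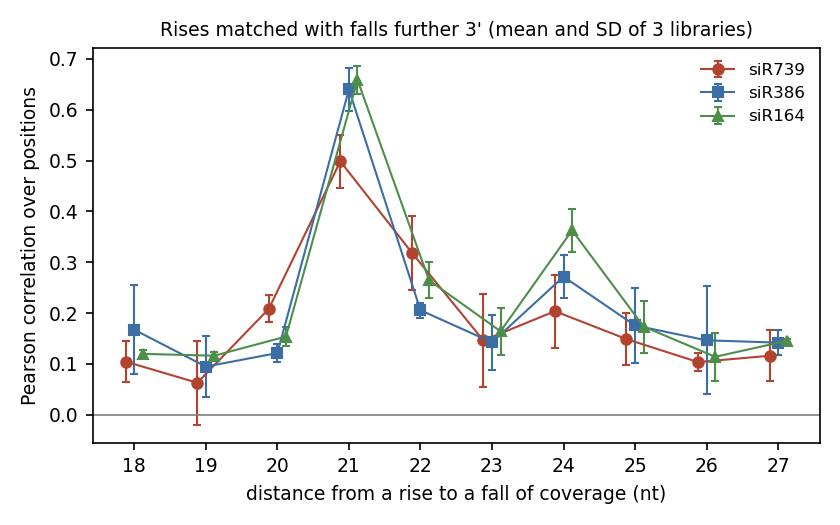
Pearson correlation over positions between the rise in coverage at a position and the fall at a position 18 to 27 nt further 3′, as the mean and SD of the 3 libraries of each siRNA. The curve of each siRNA is highest at 21 nt, at 0.499 after siR739, 0.640 after siR386 and 0.659 after siR164.

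The authors' deposited table of normalized signal, which pools the libraries of each siRNA and counts 21-, 22- and 24-nt reads, gave sums over the stretch of 8494 for siR739, 27908 for siR386 and 54793 for siR164. The siR739 sum was 0.155 times that of siR164 and 0.304 times that of siR386 in the authors' deposited table, and the siR386 sum was 0.509 times that of siR164. In the authors' deposited table the stretch held 79.3%, 78.8% and 70.4% of the column sums after siR739, siR386 and siR164. The highest value of the stretch lay at 568 after siR739, 566 after siR386 and 568 after siR164 in the authors' deposited table, 8 to 10 nt 5′ of the summit of coverage. The centre of signal in the authors' deposited table was 583.4 after siR739, 569.3 after siR386 and 559.3 after siR164, the same order as in coverage. Its slopes were 11.4, −4.03 and −15.04 percent of the stretch's mean per 100 nt in the authors' deposited table, in the same order of siRNAs. Positions in the authors' deposited table are not those of coverage: the correlation with mean coverage was highest with the table read 15 positions further 5′, at 0.814, 0.836 and 0.842 over 270 positions. Read so, the slopes from the authors' deposited table were 16.2, 4.15 and −6.70, with the same signs as in the libraries. The sign after siR386 thus depends on the shift. Read so, the range begins inside the siR386 site, and the lowest value in the authors' deposited table lay there, at 398, for each siRNA. How far this raised the slopes was not tested.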

How the data were processed

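Small RNA of 9 libraries was mapped by the authors to a GFP contig. The submitters' processing notes name Bowtie2 without a version, and settings and read trimming were not given in the sources used here. What the authors deposited is coverage per interval in whole numbers, per the file headers, a signal of all read lengths on both strands and not scaled for depth. Positions not listed were taken as 0, and intervals were written from position 1. A second deposited file holds normalized signal for 772 positions, pooled by siRNA, and its scaling is not stated. All columns of values were assigned to a sample or a pool.

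Groups and replicate numbers came from sample titles. The members, windows, tests and alternatives were chosen with earlier results of these data known. Because a read adds to coverage at every position it spans, count models were not applied. Library totals were not analysed here. Levels, slopes, shares of 3 equal parts and unevenness are 1 value per library, tested by F over all 280 partitions of 9 libraries into 3 groups (exact permutation) and in pairs over 20 assignments, with Benjamini-Hochberg adjustment. Windows of 10 nt whose mean coverage reached 1 entered 1 limma fit of all libraries (limma 3.58.1 in R 4.3.3, with a trended empirical Bayes step) on log2(percent + 0.1). All windows of the contig were given as percent of the stretch's sum. limma shares the spread between windows (26.6 degrees of freedom, 6 for a single window), although windows of a library share reads and those of the stretch add up to about 100%. Peaks and troughs were found with scipy 1.17.1 on the mean profile (at least 22 nt apart, prominence at least 0.25 times the mean). Scripts ran on Python 3.11.15 and were tested on simulated data. Named were all peaks and troughs, the ends, the 5 highest and 3 lowest windows, up to 5 called windows per pair by size of difference, and the 3 largest rises and falls of each siRNA. Window 579–588 and window 729–738 are the 2 called for siR739 minus siR386. The other called windows for siR739 minus siR164 are given by their positions, and window 509–518 was named there as one of the highest.

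Between replicates, chi-square per degree of freedom over windows of 25 nt of the stretch, on coverage divided by 22, was 0.532 to 1.18 over 9 pairs. Reads split between windows lower this value. Sums differed between replicates, so each library counted as its own sample.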

Additional observations from a re-analysis of the deposited data

How the results depend on the processing

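The tests of level and slope over the 3 groups, the ratios to the other segments and the 5′ part kept their side of the threshold under every alternative run, and pairwise level and slope differences kept their sign. The mean slope after siR386 itself changed sign (−1.01) with 22 positions left out at each end. Slope F was 12.4 to 33.2 when 1 library was left out. With 22 positions left out at each end, the 3′ part had F = 5.07 and the similarity difference was 0.010, both past the threshold before and not after. For siR739 minus siR164, 5 windows were called with windows of 25 nt and 99 with single positions, where more features are tested. For siR739 minus siR386, 15 were called with single positions and 5 as percent of the coverage outside the sites, and for siR386 minus siR164, 1 with single positions. Without pooling the spread between windows, the siR739 minus siR386 call at 729–738 was lost (limma adjusted p = 0.138). Unevenness passed with the counting variance subtracted (F = 7.93), an alternative added after seeing the data, as was leaving out the last position (slope F = 17.2). With a prominence of 0.5 times the mean, 3 troughs were found after siR164. Leaving out 1 library at a time gave a similarity difference of 0.0229 to 0.0574, and 5 to 11, 0 to 6 and 0 to 0 called windows for siR739 minus siR164, siR739 minus siR386 and siR386 minus siR164. The middle part, siR739 minus siR164, which passed no test, ranged from −2.81 to 0.134 and changed sign without siR739 replicate 7. The cause of these changes was not tested. Reads in the stretch were fewest after siR739, at 226 to 474, which limits precision there. No paired analysis was possible because the groups share no replicate numbers (1 to 3, 4 to 6 and 7 to 9).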

Other observations

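Single values were obtained from the authors' deposited table by undoing a mean over 10 consecutive positions, which left 0 values below 0 within the stretch. Extended by 22 nt towards the 3′ end, they correlated with mean coverage at 0.968 after siR739 (1 position off), 0.986 after siR386 and 0.986 after siR164 over 270 positions, as a description of positions that share reads. The highest single value in the authors' deposited table lay at 572 after siR739 (3.505% of the stretch), at 572 after siR386 (3.68%) and at 575 after siR164 (2.85%), positions where coverage rose in 9 of 9 libraries. The 10 highest positions held 23.5% of the stretch after siR739, 21.1% after siR386 and 18.9% after siR164 in the authors' deposited table. Of the 331 positions, 170 were at 0 after siR739, 57 after siR386 and 26 after siR164 in values undone from the authors' deposited table, in the order opposite to coverage of the stretch, and the part of coverage in these counts was not tested. At 738, the last position before the siR739 site, the single value was 2.15% of the stretch after siR739.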
